A study of Mus musculus with 42 samples.

Results

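Transcripts of 7 calcium pump genes, Atp2b1, Atp2b2, Atp2b3, Atp2b4, Atp2a2, Atp2a3 and Atp2c1, were followed through 42 mouse brain RNA sequencing libraries, out of 54232 genes in the deposited count table. The genes were picked by symbol as a family. The family itself was chosen by a measured value in these libraries, namely a low Atp2b3 level with NaKtide on western diet under the hippocampus label, and so that comparison and those that share its libraries are given as descriptions and not as tests of the choice. All 7 genes had reads in every library, between 32 and 5774 counts, and all 7 passed the filter on low counts in each fit.

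The libraries carried 2 tissue labels, hippocampus (22 libraries) and cerebellum (20 libraries), and under each label 4 groups. The western NaKtide mice were transgenic mice in which the peptide NaKtide was induced by food with 300 mg/kg doxycycline and a western diet with 42% fat. The western mice ate the 42% fat diet. The control NaKtide mice were transgenic mice on doxycycline in normal chow with 11% fat. The control mice ate normal chow with 11% fat. All diets lasted 12 weeks. NaKtide is a peptide derived from the Na,K-ATPase alpha subunit, which binds and inhibits the kinase Src. The hippocampus label held 6 western NaKtide, 5 western, 5 control NaKtide and 6 control libraries, and the cerebellum label held 5 of each. The transgene and doxycycline went together with NaKtide in these groups. The strain, the sex, the age, the promoter that drives the transgene, and whether mice without NaKtide carried it were not given by the sources used here. The labels also do not say that libraries came from separate animals, so that p-values measure the spread between these libraries only.

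Calcium pumps are P-type ATPases that use ATP to move calcium out of the cytosol. The Atp2b genes encode the plasma membrane pumps PMCA1 to PMCA4, which calmodulin activates, the Atp2a genes encode the SERCA pumps that fill the endoplasmic reticulum, and Atp2c1 encodes SPCA1, which supplies calcium and manganese to the Golgi apparatus. In neurons these pumps restore low cytosolic calcium after activity, and PMCA2 and PMCA3 are the plasma membrane forms that are most restricted to excitable cells.

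Library totals ran from 4669374 to 9521002 counts. The tissue labels did not match the markers of the tissues. Gabra6, the receptor subunit that defines cerebellar granule cells, was under 1 CPM (counts scaled to library size, with TMM factors) in 15 of 20 libraries labelled cerebellum and reached 10 CPM in 3 of them, while it also reached 10 CPM in 1 of 22 labelled hippocampus. The summed level of 7 dentate granule cell markers ran from 46.5 to 543.5 CPM under the hippocampus label and from 34.6 to 283 CPM under the cerebellum label, and that of 7 pyramidal cell markers from 52.3 to 578 CPM and from 48.9 to 484 CPM. Xist exceeded 5 counts in 4 libraries. Of these, hippocampus control 5 and 6 were closer to each other than any other of 90 pairs of libraries of 1 group. Their chi-square over 15843 genes was 2.45 per degree of freedom, above the 1 that counting noise alone gives, while the next closest pair had 7.69. They were kept as 2 libraries, and whether they came from 1 animal was not tested. Comparisons of 2 groups that use the hippocampus controls are also given with both summed into 1 library. For the interaction of diet and NaKtide and for the diet difference between the labels, no such value is given. The tissue names are therefore used here as labels only, and in these bulk samples fewer cells of a type cannot be told apart from less RNA per cell.

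The pumps share the catalytic site of the enzyme class, an aspartate that takes the phosphate from ATP, in a short motif that all P-type pumps carry. The coding stretches of 36 bases around it are shown for Atp2b1 and Atp2c1, a plasma membrane and a Golgi pump whose log2 levels had the highest correlation of any pair of the 7 across the 42 libraries (r = 0.87). They were read from GENCODE M21 transcripts on GRCm38, on the coding strand, with the 15 bases of the 5 codons in capitals. They lie in exon 10 of 21 of Atp2b1 (chr10:98999805-98999840, plus strand) and exon 13 of 27 of Atp2c1 (chr9:105445269-105445304, minus strand).
Atp2b1: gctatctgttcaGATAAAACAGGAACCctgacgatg
Atp2c1: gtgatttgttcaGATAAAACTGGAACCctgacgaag
Their capital bases differed at 1 of 15 positions. Those of Atp2b4 and Atp2a2 differed at 0 of 15, with r = 0.25 between their levels. Whether likeness in these bases goes with r over all pairs was not tested. The longest run of bases that 2 of the genes shared anywhere in their transcripts was 12 to 56 bases, with the longest between Atp2b2 and Atp2b3. Of stretches of 50 bases, 7 were shared by Atp2b2 and Atp2b3 and none by another pair. Sharing with genes outside the family was largest for Atp2c1. Of its stretches of 50 bases, 17.4% also occur in another gene, mostly Aste1, whose exons overlap those of Atp2c1 on the opposite strand. No source used here states whether the counting used the strand, and reads of Atp2c1 and Aste1 could then not be told apart in that overlap. For Atp2a2 the share was 3.93%, mostly with the predicted gene Gm30970, and for the other 5 genes it was at most 1.27%.

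Per length, Atp2a2 had the highest and Atp2a3 the lowest median level among the 7 pump genes. The median deposited FPKM (fragments scaled to exon length and library size) over 42 libraries was 70.8 for Atp2a2, which encodes the SERCA2 pump of the reticulum found in most cells. It was 32.7 for Atp2b2 (PMCA2), 13.95 for Atp2b1 (PMCA1, the widespread plasma membrane pump), 9.81 for Atp2b4 (PMCA4), 4.99 for Atp2c1, 4.42 for Atp2b3 (PMCA3) and 1.67 for Atp2a3 (SERCA3). The ranges of neighbours in this order overlapped in every case. Within a library the order was firmer at the top: Atp2a2 was above Atp2b2 in 42 of 42 libraries and Atp2b2 above Atp2b1 in 41. It was loose further down, with Atp2b1 above Atp2b4 in 26, Atp2b4 above Atp2c1 in 35, Atp2c1 above Atp2b3 in 24 and Atp2b3 above Atp2a3 in 34 of 42.

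**Figure D1:**
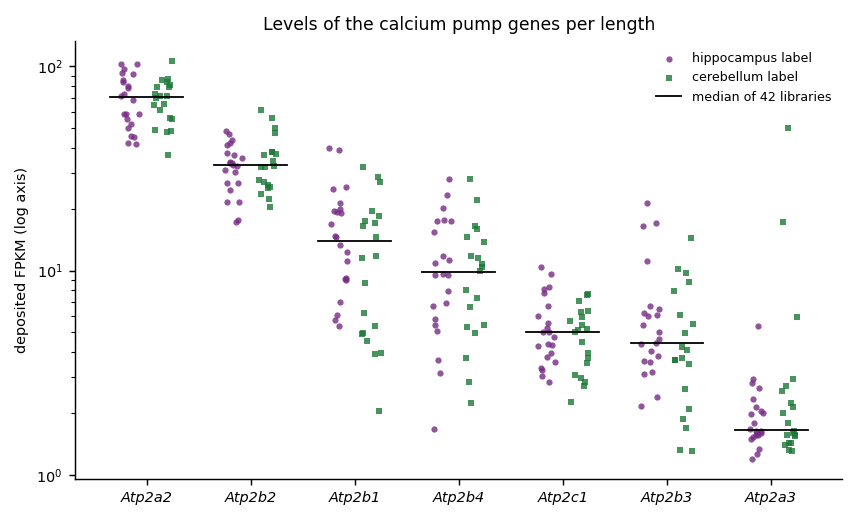
Deposited FPKM (log axis) of each calcium pump gene in 22 libraries labelled hippocampus (circles) and 20 labelled cerebellum (squares), with the median of 42 libraries as a line. Atp2a2 lies highest at a median of 70.8, and Atp2a3 lies lowest at 1.67 apart from a few libraries that reach 49.6.

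The genes differed widely in how much they varied between libraries. Atp2a2 ranged 2.91-fold from its lowest to its highest FPKM, Atp2b2 3.51-fold and Atp2c1 4.62-fold. Atp2b3 ranged 16.3-fold, Atp2b4 16.7-fold, Atp2b1 19.4-fold and Atp2a3 41.4-fold. Much of this lay within groups. In the order of the 8 group means of a gene, neighbouring groups differed by no more than the larger of their SDs in 7 of 7 cases for Atp2b2, Atp2b4, Atp2a2 and Atp2a3, in 6 of 7 for Atp2b1 and Atp2c1 and in 5 of 7 for Atp2b3, and no neighbouring groups were free of overlap. The highest and the lowest group mean stood apart without overlap for Atp2b3 (71.1 ± 28.7 CPM in hippocampus western and 10.3 ± 4.42 CPM in cerebellum control, SD, n = 5 each) and Atp2c1 (83.7 ± 17.2 CPM and 31.4 ± 11.4 CPM in the same groups).

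**Figure D2:**
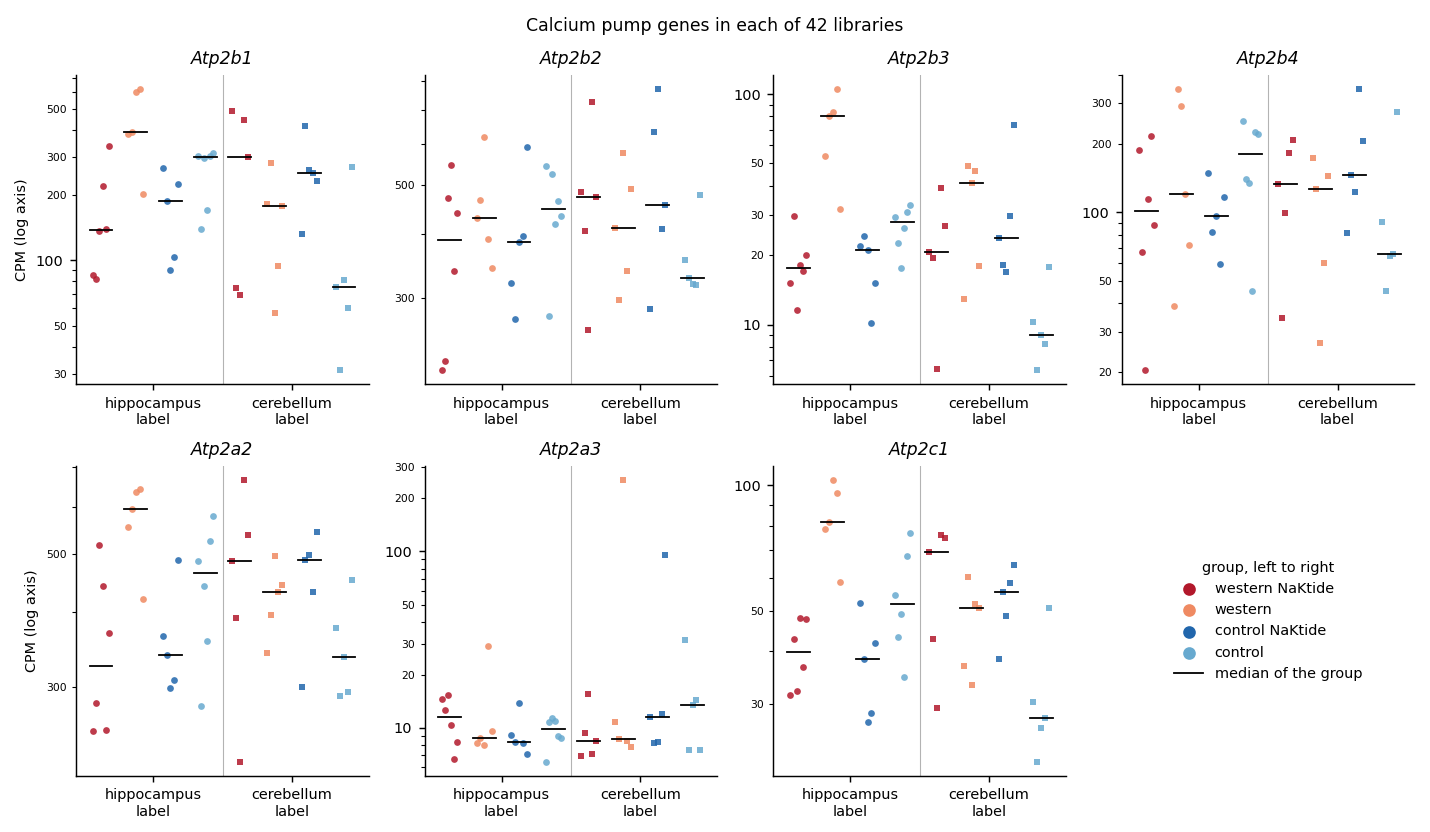
CPM (log axes) of each calcium pump gene in every library, with groups in the order western NaKtide, western, control NaKtide and control under each tissue label, and lines at group medians. Atp2b3 and Atp2c1 are highest in hippocampus western and lowest in cerebellum control, whereas Atp2a3 is level except for single libraries of up to 254 CPM.

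The first comparison asked how NaKtide changed the pump transcripts in mice on western diet. Under the hippocampus label all 7 genes were lower on average with NaKtide, and in 4 of them, Atp2b1, Atp2b3, Atp2a2 and Atp2c1, the difference passed the threshold of an adjusted p under 0.05 in edgeR's quasi-likelihood test. That threshold was passed by 33.7% of 16442 genes in either direction and by 16.3% as lower, and DESeq2 called the same 4 genes beside 30.3% of the genes it tested. Because Atp2b3 in this comparison led to the choice of the family, these counts are a description.

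Atp2b3, the gene behind the choice, had a lowest value of 11.5, a median of 17.6 and a highest value of 29.7 CPM in 6 western NaKtide libraries, against 53.9, 80.3, 83.9, 106 and 31.7 CPM in 5 western libraries. All 6 western NaKtide libraries lay below every western library, and the log2 difference was -1.92 (SE 0.27). Its means were 18.6 ± 6.16 CPM with NaKtide and 71.1 ± 28.7 CPM without it.

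Atp2b1 had a lowest value of 82.2, a median of 138.6 and a highest value of 337 CPM in western NaKtide libraries, against 383.5, 392, 599.6, 623 and 204 CPM in western libraries. The groups overlapped, with 4 of 6 western NaKtide libraries below all western ones, and the log2 difference was -1.39 (SE 0.36).

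Atp2b2 and Atp2b4, the other plasma membrane pumps, overlapped broadly between the groups. Atp2b2 averaged 373.5 ± 135 CPM in western NaKtide and 450.3 ± 105 CPM in western libraries, a log2 difference of -0.26 with an interval of -0.73 to 0.21. Atp2b4 averaged 115 ± 73.8 CPM and 174 ± 138 CPM in the same groups, a log2 difference of -0.58 with an interval of -1.61 to 0.45. For both genes the interval spans a change in either direction.

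Among the reticulum and Golgi pumps, Atp2a2 ran from 253 through a median of 325 to 518 CPM in western NaKtide libraries, against 556, 595, 634, 641.5 and 421 CPM in western libraries. It was lower than every western library in 4 of 6, with a log2 difference of -0.68 (SE 0.20). Atp2c1 ran from 31.4 through 39.8 to 48.0 CPM in western NaKtide libraries, against 78.8, 81.6, 103, 96.1 and 58.7 CPM in western libraries. These groups did not overlap, and the log2 difference was -1.06 (SE 0.19). Atp2a3 averaged 11.3 ± 3.46 CPM in western NaKtide and 12.7 ± 9.11 CPM in western libraries, with a log2 difference of -0.16 (SE 0.31). Without the 4 libraries of at least 10 CPM Gabra6, which include hippocampus western 4, it was 0.40 (SE 0.24).

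Each of the 4 lower genes was also called in every fit that left out 1 library. The log2 difference then ran from -2.11 to -1.74 for Atp2b3, from -1.70 to -1.24 for Atp2b1, from -1.16 to -0.98 for Atp2c1 and from -0.85 to -0.60 for Atp2a2. The 4 genes were also called without the 4 libraries that held Xist and without the 4 libraries that held Gabra6, which was chosen after seeing the data. All of these fits reuse libraries behind the choice of the family, so they too are a description. The number of all genes that each of them called is not given here.

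Cell type markers and gene length moved in the same comparison, and their part in the pump differences was not tested. The summed level of 8 oligodendrocyte markers was 2204, 11020 and 21550 CPM (lowest, median, highest) in western NaKtide and 3542, 4985 and 10160 CPM in western libraries. That of 6 pan-neuronal markers was 3021, 3494 and 4503 CPM in western NaKtide and 4387, 5610 and 6032 CPM in western libraries, with 3 of the 6 called lower. That of 7 astrocyte markers was 1256, 1650 and 1812 CPM against 1703, 2666 and 3692 CPM, with 4 called lower, and that of 10 striatal markers was 265, 905 and 5473 CPM against 215, 241 and 578 CPM, with 5 called higher. Of 7 dentate granule cell markers 4 were called lower, of 7 pyramidal cell markers 1, of 7 Purkinje cell markers 3 and of 5 tested cerebellar granule cell markers 2. Of 8 microglia markers 4 were called higher, with a median sum of 391 CPM in western NaKtide and 296.5 CPM in western libraries, and of 3 blood markers 2, with median sums of 591 CPM and 394 CPM. Of the 8 oligodendrocyte markers Mbp alone was called, as higher.

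Long genes were lower than short ones as a class. The median log2 difference was 0.05 over all 16442 genes, -0.28 in the longest quartile of genes by length and 0.48 in the shortest, with a correlation of -0.40 across genes between the difference and log length, where genes are not independent replicates. The pump genes are long, with exon lengths from 4820 bases for Atp2b3 to 15218 bases for Atp2b1, at percentiles 62.0 to 97.8 of the tested genes. Their median log2 difference was -0.68. With the length trend of each library taken out, the log2 differences were -1.81 (SE 0.26) for Atp2b3, -0.91 (SE 0.30) for Atp2b1, -0.71 (SE 0.15) for Atp2c1 and -0.51 (SE 0.18) for Atp2a2, and the same 4 genes were called. Those of the other 3 were then 0.14 for Atp2b2, -0.06 for Atp2b4 and -0.02 for Atp2a3. The number of all genes called in that fit is not given here.

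**Figure D3:**
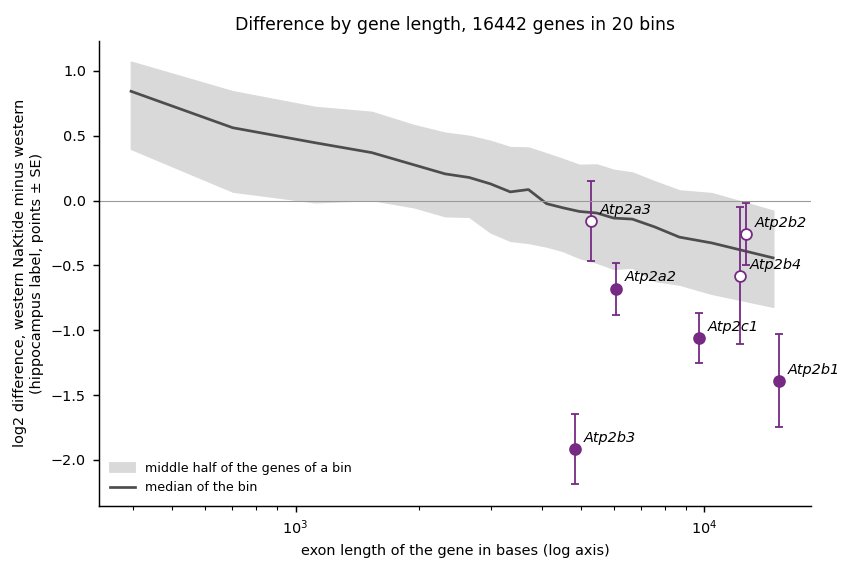
Log2 difference between western NaKtide and western libraries labelled hippocampus against exon length (log axis), with the median and the band between the lower and upper quartile of 16442 genes in 20 bins of length, and the 7 pump genes with SE bars (filled points were called). Atp2b3 at -1.92, Atp2b1 at -1.39, Atp2c1 at -1.06 and Atp2a2 at -0.68 lie below the band of the bin nearest their length. Atp2b2, Atp2b4 and Atp2a3 lie inside the band at theirs. A low Atp2b3 in this comparison led to the choice of the family, so these places are a description.

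Under the cerebellum label the same comparison gave no call for any pump gene, with edgeR or with DESeq2. There edgeR called 0% of 16338 genes and DESeq2 0.00319%, and 4.16% of genes had an unadjusted p under 0.05, among them Atp2a3 alone of the pumps. Atp2b1 averaged 277 ± 199.9 CPM in western NaKtide and 159 ± 87.6 CPM in western libraries (SD, n = 5 each), a log2 difference of 0.76 with an interval of -0.38 to 1.91. Atp2b3 averaged 22.5 ± 11.9 CPM and 33.4 ± 16.8 CPM, a difference of -0.62 with an interval of -1.53 to 0.30. The other differences were 0.11 for Atp2b2, 0.27 for Atp2b4, 0.09 for Atp2a2 and 0.29 for Atp2c1, each within 2 SE of 0.

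The difference of the NaKtide change between the 2 labels, in a joint fit of 42 libraries, was lowest for Atp2b1 at -2.13 (SE 0.70) and for Atp2c1 at -1.33 (SE 0.33), and edgeR and DESeq2 called these 2 pump genes. Of 17088 genes 8.84% were called by edgeR, 4.44% as lower under the hippocampus label, and DESeq2 called 11.4%. This contrast contains the comparison that led to the choice, so these values too are a description. Atp2b3 gave -1.29 (SE 0.54), Atp2a2 -0.74 (SE 0.31) and Atp2a3 2.53 (SE 1.01), and none of them passed. Of 42 fits that each left out 1 library, Atp2b1 passed in 19 and missed the threshold in 23, with log2 values from -2.44 to -1.84, while Atp2c1 passed in all 42, with values from -1.53 to -1.23. Without the 4 libraries with Gabra6 neither gene passed, at -1.79 for Atp2b1 and -1.21 for Atp2c1, and edgeR then called 0 genes. Without cerebellum western NaKtide replicate 3, Atp2b3 at -1.54 and Atp2a2 at -0.94 were called too. That replicate was named after the values without it were seen, and the number of all genes called without it is not given here.

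**Figure D4:**
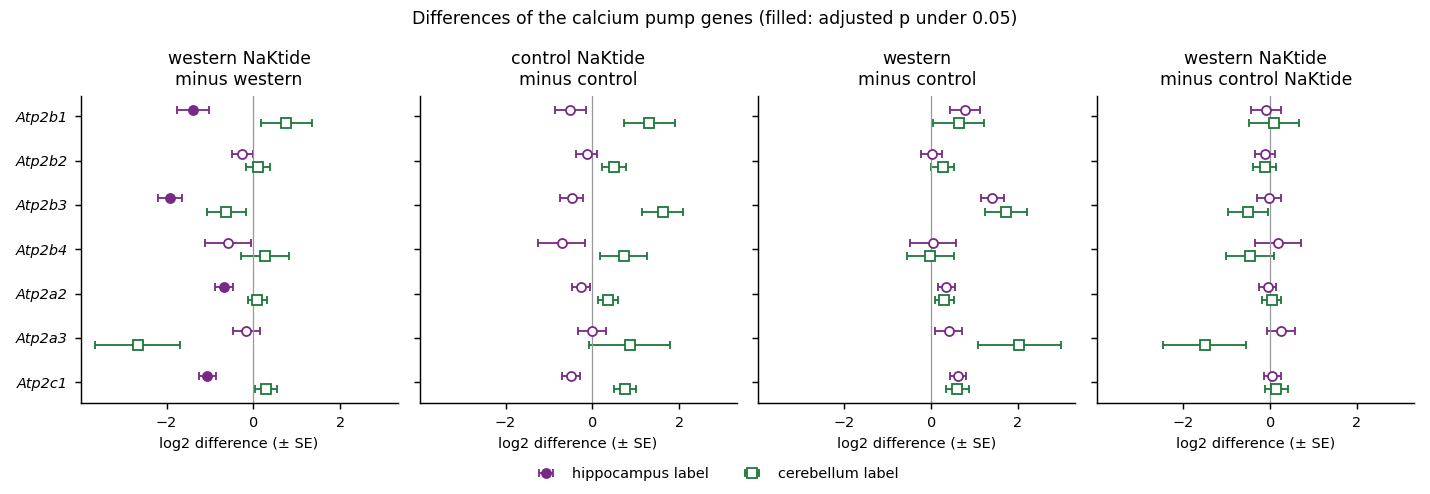
Log2 differences (± SE) of the 7 pump genes for NaKtide on each diet and for the diet with and without NaKtide, for libraries labelled hippocampus (circles) and cerebellum (squares), filled where the adjusted p was under 0.05. Filled points appear in the first panel alone, for Atp2b1, Atp2b3, Atp2a2 and Atp2c1, and on control diet the hippocampus points lie at or below 0 and the cerebellum points above it.

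NaKtide was next compared on control diet, which the choice of the genes did not use. Under the hippocampus label no pump gene was called, and all 7 estimates were at or below 0. edgeR called 0% of the genes and DESeq2 0.0105%, and 16.5% had an unadjusted p under 0.05, among them Atp2c1. Atp2c1 had 52.4, 38.4, 27.1, 28.5 and 41.9 CPM in control NaKtide libraries, against a lowest value of 34.8, a median of 52.0 and a highest value of 77.1 CPM in control libraries. The groups overlapped, and the log2 difference was -0.49 (SE 0.20, adjusted p = 0.236), or -0.40 with control 5 and 6 summed, where no pump gene was called either. Atp2b3 averaged 18.5 ± 5.77 CPM in control NaKtide (n = 5) and 26.7 ± 5.74 CPM in control libraries (n = 6), a difference of -0.48 with an interval of -1.02 to 0.05. For Atp2b1 the difference was -0.51 and for Atp2b4 -0.71, with SEs of 0.36 and 0.54. The median of the 7 genes was -0.48, beside 0.01 over all genes and -0.17 in the longest quartile of genes by length.

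Under the cerebellum label the pump genes were all higher on average with NaKtide on control diet, but no pump gene was called by edgeR. It called 0.00612% of genes, and 29.5% had an unadjusted p under 0.05, among them Atp2b1, Atp2b3 and Atp2c1. DESeq2 called Atp2b3 beside 6.68% of genes. Atp2b3 had 23.9, 18.1, 16.9, 29.7 and 73.3 CPM in control NaKtide libraries, against 10.3, 6.33, 9.02, 8.20 and 17.8 CPM in control libraries. In 4 of 5 control NaKtide libraries it was above every control library, and the log2 difference was 1.62 (SE 0.48, edgeR adjusted p = 0.0908, DESeq2 adjusted p = 0.0327). Atp2b1 had 133, 417.5, 263, 253 and 233 CPM in control NaKtide libraries, against 75.2, 31.1, 81.2, 60.5 and 271 CPM in control libraries. Its log2 difference was 1.31 (SE 0.59, edgeR adjusted p = 0.152). Atp2c1 differed by 0.75 (SE 0.26) and Atp2a2 by 0.36 (SE 0.22), and neither passed. The median of the 7 genes was 0.75, beside 0.02 over all genes and 0.24 in the longest quartile of genes by length.

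One control library held much of this overlap. Cerebellum control 5 had 271 CPM of Atp2b1, 276 CPM of Atp2b4 and 50.9 CPM of Atp2c1, while the other 4 control libraries reached at most 81.2, 90.8 and 30.2 CPM. Without it edgeR called Atp2b1 at 2.06 (adjusted p = 0.0201), Atp2b3 at 1.92 (adjusted p = 0.0191), Atp2b4 at 1.43 (adjusted p = 0.0498) and Atp2c1 at 1.00 (adjusted p = 0.0168) as higher with NaKtide, 4 of 7 pump genes, beside 4386 genes in all. Cerebellum control 5 was singled out after its high pump values were seen. Larger differences without it were therefore built in, and these calls are a description. Marker genes stood apart in the same library. The oligodendrocyte marker sum was 2073 to 8944 CPM in control NaKtide libraries, against 4558 CPM in cerebellum control 5 and 12800 to 20340 CPM in the other 4 control libraries. The pan-neuronal sum was 3535 to 5915 CPM in control NaKtide libraries, against 5901 CPM in cerebellum control 5 and 2576 to 4085 CPM in the other 4. The part of these markers in the pump differences was not tested. On the NaKtide side, cerebellum control NaKtide 5 had 73.25 CPM of Atp2b3, beside 16.88 to 29.67 CPM in the others of its group. It also had 124.9 CPM of Gabra6, and the differences without it are not given here.

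For the diet without NaKtide, no pump gene was called by edgeR under either label. Under the hippocampus label all 7 estimates were above 0. This comparison shares its western libraries with the one behind the choice of the genes. edgeR called 0% of genes and 24.6% had an unadjusted p under 0.05, among them Atp2b1, Atp2b3 and Atp2c1, while DESeq2 called Atp2b3 and Atp2c1 beside 5.72% of genes. Atp2b3 averaged 71.1 ± 28.7 CPM in western (n = 5) and 26.7 ± 5.74 CPM in control libraries (n = 6). In 4 of 5 western libraries it was above every control library, and the log2 difference was 1.41 (SE 0.27). Atp2b1 averaged 440.4 ± 173 CPM and 255 ± 78.1 CPM, a difference of 0.78 (SE 0.35), and Atp2c1 83.7 ± 17.2 CPM and 54.4 ± 15.6 CPM, a difference of 0.61 (SE 0.19). Without the 4 libraries with Xist, 2 of them hippocampus control libraries, edgeR called Atp2b3 at 1.56 and Atp2c1 at 0.88, beside 2209 genes in all. With control 5 and 6 summed into 1 library, it called Atp2b3 at 1.46, and Atp2c1 at 0.70 was not called. How many of all genes were called with that sum is not given here. Markers differed between these groups too, and their part was not tested. Of 10 striatal markers 9 had an unadjusted p under 0.05 as lower, with median sums of 241 CPM in western and 1895 CPM in control libraries. Of 7 dentate granule cell markers 4 were higher at that threshold, with median sums of 352 CPM and 114 CPM, and of 8 microglia markers 5 were lower. The correlation of the difference with log length across genes was 0.40, with medians of 0.21 in the longest and -0.33 in the shortest quartile.

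Under the cerebellum label, whose libraries the choice did not use, Atp2b3 had 12.9, 48.9, 40.9, 46.5 and 18.0 CPM in western libraries, against 10.3, 6.33, 9.02, 8.20 and 17.8 CPM in control libraries. It was above all control libraries in 4 of 5 western libraries, and the log2 difference was 1.72 (SE 0.49). edgeR gave an adjusted p of 0.164 and DESeq2 one of 0.0409. Without cerebellum control 5, singled out after its high values were seen, the difference was 2.01 and edgeR's adjusted p was 0.0456. How many of all genes were called without that library is not given here, so this value is a description. The oligodendrocyte marker sum had a median of 6491 CPM in western and 16970 CPM in control libraries, and 3 of 3 tested pituitary markers were lower at an unadjusted p under 0.05, with median sums of 4.34 CPM and 75.6 CPM. Across genes the difference correlated with log length at 0.39. The part of these in the Atp2b3 difference was not tested. Atp2c1 averaged 46.7 ± 11.3 CPM in western and 31.4 ± 11.4 CPM in control libraries, a difference of 0.60 (SE 0.26). edgeR called 0.00612% of genes, and 19.5% had an unadjusted p under 0.05, among them Atp2b3, Atp2a3 and Atp2c1. DESeq2 called 1.03% of genes, with Atp2b3 as the single pump gene. The western and the control NaKtide comparisons under this label share their 5 control libraries. The diet difference between the labels was 0.02 for Atp2c1 (interval -0.63 to 0.66) and -0.31 for Atp2b3 (interval -1.37 to 0.75). No pump gene was called there by edgeR or DESeq2, and none had an unadjusted p under 0.05, beside 0% called by edgeR, 0.00298% by DESeq2 and 5.31% at an unadjusted p under 0.05.

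With NaKtide in both groups, the diets could not be separated for any pump gene. Under the hippocampus label Atp2b3 averaged 18.6 ± 6.16 CPM in western NaKtide (n = 6) and 18.5 ± 5.77 CPM in control NaKtide libraries (n = 5), a log2 difference of -0.03 with an interval of -0.56 to 0.51. Atp2c1 differed by 0.05 (interval -0.34 to 0.43) and Atp2a2 by -0.06 (interval -0.46 to 0.33). edgeR called no pump gene and 0% of genes, 10.7% of genes but no pump had an unadjusted p under 0.05, and DESeq2 called 0.155% of genes and no pump. Under the cerebellum label Atp2b3 averaged 22.5 ± 11.9 CPM in western NaKtide and 32.4 ± 23.4 CPM in control NaKtide libraries, a difference of -0.52 with an interval of -1.43 to 0.39. edgeR called no pump gene and 0% of genes, 2.42% of genes but no pump had an unadjusted p under 0.05, and DESeq2 called 0.00319% and no pump.

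The interaction of diet and NaKtide is the NaKtide change on western diet minus that on control diet. It was below 0 for 6 of 7 pump genes under the hippocampus label and for 7 of 7 under the cerebellum label. The median of the 7 genes was -0.41 under the hippocampus label, beside 0.03 over all genes and -0.11 in the longest quartile of genes by length. Under the cerebellum label these values were -0.46, -0.05 and -0.30. For Atp2b3 the interaction was -1.43 (SE 0.38) under the hippocampus label, which rests on the libraries behind the choice. Under the cerebellum label it was -2.24 (SE 0.67, edgeR adjusted p = 0.251). edgeR called no pump gene in either. Under the hippocampus label it called 0% of genes, 14.6% had an unadjusted p under 0.05, Atp2b3 among them, and DESeq2 called Atp2b3 beside 1.04% of genes. Under the cerebellum label it called 0.00612% of genes, 17.4% had an unadjusted p under 0.05, Atp2b3 and Atp2a3 among them, and DESeq2 called 0.0888% of genes and no pump. The Atp2a3 value of -3.53 (SE 1.35) rests on single libraries described further on.

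Between the tissue labels no pump gene was called by edgeR in any of the 4 conditions. In control mice Atp2b3 had a lowest value of 17.7, a median of 27.8 and a highest value of 33.1 CPM under the hippocampus label, against 10.3, 6.33, 9.02, 8.20 and 17.8 CPM under the cerebellum label. It was above every cerebellum control library in 5 of 6, with a log2 difference of 1.34 (SE 0.39, edgeR adjusted p = 0.0540). Atp2c1 differed by 0.78 (SE 0.23, edgeR adjusted p = 0.0547) and Atp2b1 by 1.28 (SE 0.50, edgeR adjusted p = 0.0937), and these 3 genes had an unadjusted p under 0.05, as did 29% of genes. edgeR called 2.2% of genes there, and DESeq2 called Atp2b3 and Atp2c1 beside 8.62%. Without cerebellum control 5, singled out after its high values were seen, edgeR called Atp2b1 at 2.03, Atp2b3 at 1.64 and Atp2c1 at 1.03, beside 4334 genes in all. With hippocampus control 5 and 6 summed, Atp2b3 was at 1.29 and Atp2c1 at 0.68, and neither was called. The oligodendrocyte marker sum had a median of 7428 CPM under the hippocampus label and 16970 CPM under the cerebellum label, and 3 of 4 tested pituitary markers and 2 of 3 blood markers were called lower under the hippocampus label. Their part in the pump differences was not tested.

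In western mice, where the hippocampus libraries are those behind the choice, Atp2b1 differed between the labels by 1.42 (SE 0.51), Atp2b3 by 1.03 (SE 0.39) and Atp2c1 by 0.79 (SE 0.24). These 3 and Atp2a3, at -2.27 (SE 0.73), had an unadjusted p under 0.05, as did 22.6% of genes, while edgeR called 0% of genes and DESeq2 called Atp2c1 beside 1.23%. In control NaKtide mice all 7 pump genes were lower under the hippocampus label. Their median was -0.56, beside 0.00 over all genes and -0.22 in the longest quartile of genes by length. Of the pumps Atp2a3 had an unadjusted p under 0.05, as did 21.2% of genes, edgeR called 0% and DESeq2 0.11%, without a pump. In western NaKtide mice Atp2c1 averaged 39.8 ± 7.46 CPM (n = 6) under the hippocampus label and 58.5 ± 21.2 CPM (n = 5) under the cerebellum label, a difference of -0.53 (SE 0.23). It was the single pump gene with an unadjusted p under 0.05, as were 16.5% of genes, and edgeR called 1.75% and DESeq2 3.39%, without a pump.

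Atp2a3 behaved unlike the other pumps, in that its level was set by a few libraries. It encodes SERCA3, a reticulum pump with lower calcium affinity than SERCA2, which in brain is known from Purkinje cells. In 38 libraries it lay between 6.45 and 15.7 CPM with a median of 8.74 CPM. It reached 254 CPM in cerebellum western 3, 96.0 CPM in cerebellum control NaKtide 5, 31.6 CPM in cerebellum control 1 and, under the other label, 29.0 CPM in hippocampus western 4. Those 4 libraries were also the 4 with the highest sums of 8 cerebellar granule cell markers, at 2937, 1433, 396 and 330 CPM in the same order, beside 15.9 to 136.5 CPM in the other 38. Of the 4 libraries, 3 were among the 4 highest in the sum of 7 Purkinje cell markers. That sum was 2831 CPM in cerebellum western 3, 1488 CPM in cerebellum control NaKtide 5, 730 CPM in hippocampus western 4 and 474 CPM in cerebellum control 1, beside 211 to 673.5 CPM in the others.

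**Figure D5:**
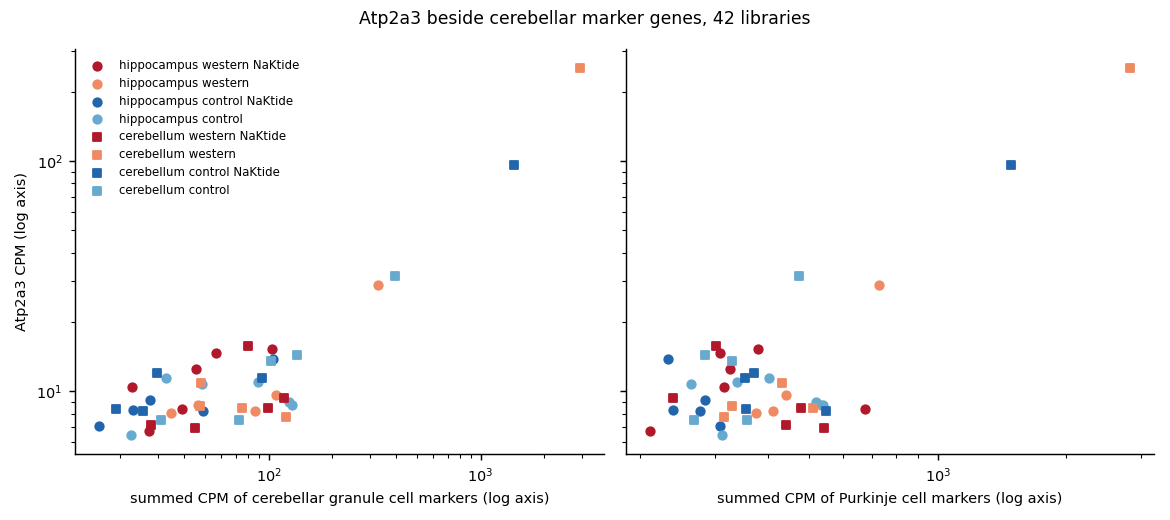
Atp2a3 CPM against the summed CPM of 8 cerebellar granule cell markers (left) and 7 Purkinje cell markers (right) in 42 libraries, all axes logarithmic, circles for the hippocampus label and squares for the cerebellum label. The 4 libraries with 29.0 to 254 CPM of Atp2a3 are the 4 with the highest granule cell marker sums.

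The group differences of Atp2a3 followed those libraries. Between western NaKtide and western libraries labelled cerebellum it had 6.95, 9.40, 15.7, 7.16 and 8.47 CPM, against 10.8, 8.62, 254, 8.45 and 7.75 CPM, which gave a log2 difference of -2.67 (SE 0.98, edgeR adjusted p = 1.00). Without cerebellum western 3 the difference was 0.07. The part of cerebellar tissue in these values was not tested.

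The transcripts most like each pump gene, up to 3 of which are named, over the 42 libraries were found by Pearson's r of log2(CPM + 1) among 13939 genes with a mean of at least 1 CPM. The libraries share tissue content and depth, and the values are descriptions. Atp2b1 went with Anks1b and Gabra4, among others (r = 0.94 each). Atp2b2 went with Cacnb4 (r = 0.83), with Sema7a (r = 0.82) and with Osbpl1a (r = 0.80). Atp2b3 went with Adcy9 (r = 0.90), with Gse1 (r = 0.89) and with Pcdhac2 (r = 0.89), and Atp2b4 with Bmp3 (r = 0.91), Pknox2 (r = 0.90) and Dtl (r = 0.89). Atp2a2 went with Cd47, Asap2 and Nr3c1 (r = 0.91 each), and Atp2c1 with Matr3, Crk and Rapgef2 (r = 0.95 each). Atp2a3 went with Svep1 (r = 0.95), Nrk (r = 0.94) and Bcl2l15 (r = 0.93), and those values were 0.78, 0.75 and 0.76 without its 2 highest libraries.

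Within the family the 15 pairs without Atp2a3 had r from 0.20 to 0.87. Atp2b1 and Atp2c1 were the most alike (r = 0.87), followed by Atp2b3 and Atp2c1 (r = 0.81), Atp2a2 and Atp2c1 (r = 0.79) and Atp2b2 and Atp2a2 (r = 0.76). The 6 pairs with Atp2a3 had r from -0.30 to 0.19. As deviations from group means, r of Atp2b1 with Atp2c1 was 0.80 under the hippocampus label and 0.86 under the cerebellum label.

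Promoter windows of RefSeq (build GRCm38.p6), from 250 bases before to 50 bases after a transcript start, are shown for Atp2b1 and Atp2c1, the pair with the highest r, and for Atp2a3, whose level followed neither. The table held 9 windows for 5 of the 7 genes, and Atp2b3 and Atp2a2 are named only. Where a gene had several windows, the one with most motif matches is printed. The other Atp2c1 window held 0 matches, and the other Atp2b1 window held 3 GC boxes and neither of the other motifs. Capitals mark matches on either strand to the E-box CACGTG, the GC box GGGCGG and the cyclic AMP response core TGACG. The windows are chr10:98914392-98914691 (plus strand, 79.3% G or C), chr9:105495084-105495383 (minus strand, 73.3%) and chr11:72960919-72961218 (plus strand, 68.3%).
Atp2b1: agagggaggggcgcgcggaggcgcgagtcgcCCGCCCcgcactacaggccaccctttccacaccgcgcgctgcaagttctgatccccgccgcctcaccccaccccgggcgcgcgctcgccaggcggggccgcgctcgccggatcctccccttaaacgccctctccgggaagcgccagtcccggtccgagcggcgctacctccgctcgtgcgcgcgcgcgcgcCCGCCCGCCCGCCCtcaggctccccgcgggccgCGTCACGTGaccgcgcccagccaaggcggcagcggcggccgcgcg
Atp2c1: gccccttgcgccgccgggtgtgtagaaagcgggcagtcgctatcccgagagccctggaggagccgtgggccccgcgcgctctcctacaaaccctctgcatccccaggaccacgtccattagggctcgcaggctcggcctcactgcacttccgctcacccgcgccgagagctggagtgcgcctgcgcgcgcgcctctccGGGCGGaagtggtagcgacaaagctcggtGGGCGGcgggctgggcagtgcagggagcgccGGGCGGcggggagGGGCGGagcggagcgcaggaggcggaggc
Atp2a3: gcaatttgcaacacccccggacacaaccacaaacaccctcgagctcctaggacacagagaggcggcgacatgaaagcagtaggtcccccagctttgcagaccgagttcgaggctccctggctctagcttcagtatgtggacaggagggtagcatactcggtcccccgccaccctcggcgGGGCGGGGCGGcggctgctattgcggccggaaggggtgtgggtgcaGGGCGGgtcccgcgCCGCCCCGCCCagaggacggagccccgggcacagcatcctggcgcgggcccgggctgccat
The Atp2b1 window held 4 GC boxes, some of which overlap each other, and 1 E-box that overlaps 1 response core. The Atp2c1 window held 4 GC boxes and the Atp2a3 window 5, some of which overlap, and neither held the other motifs. Of 32851 windows of this length, 35.7% held a GC box, 20.8% the response core and 7.15% the E-box. Those windows were not picked by their matches, unlike the printed ones of Atp2b1 and Atp2c1, so the shares are no measure of enrichment. The matches describe the letters in these windows only.

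Among 47 other genes of calcium handling (the pump genes Atp2a1 and Atp2c2, exchangers, release channels, store sensors, the mitochondrial uniporter, pump partners and buffers), 43 were tested under the hippocampus label, and for NaKtide on western diet 9 were called lower and 2 higher, beside 33.7% of all genes called. Their median log2 difference was -0.15, beside 0.05 over all genes. Slc8a1, the sodium-calcium exchanger NCX1, averaged 2.56 ± 1.26 CPM in western NaKtide and 10.6 ± 6.19 CPM in western libraries, a log2 difference of -2.02 (SE 0.40). Stim2, a calcium sensor of the reticulum, averaged 32.1 ± 11.2 CPM and 80.5 ± 24.1 CPM in the same groups, a difference of -1.31 (SE 0.26), and was below every western library in 6 of 6. Slc24a2, a potassium-dependent sodium-calcium exchanger, averaged 174 ± 83.8 CPM and 399 ± 96.4 CPM, a difference of -1.18 (SE 0.25). The 2 higher genes, named after their values were seen, belong to the mitochondrial uniporter: Smdt1, its subunit EMRE, at 0.94 (SE 0.26), and Micu2, a gatekeeper of it, at 0.53 (SE 0.17). Genes of the uniporter went both ways, since Micu3, also named after its value was seen, was called lower at -0.63 (SE 0.15). In the difference of the NaKtide change between the labels, 4 of 45 tested genes of the list were called, all lower, beside 8.84% of all genes called, with Slc24a2 at -1.46 (SE 0.40), Stim2 at -1.50 (SE 0.42) and Slc8a1 at -1.97 (SE 0.57) as those with the smallest p. The 4th was Canx, a reticulum chaperone named after its value was seen, at -0.75 (SE 0.24). In the other 14 comparisons edgeR called none of the list, and at an unadjusted p under 0.05 the largest number was 13 higher and 5 lower of 45, between the labels in control mice, beside 29% of all genes there.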

How the data were processed

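Raw counts per gene, normalized counts (a signal) and FPKM of 42 libraries were deposited by the authors, and each was read as deposited. Per the submitters' processing notes, Trimmomatic 0.38, HISAT2 2.1.0 and DESeq2 1.20.0 were used with build GRCm38. No source used here names the counting tool, its annotation or its use of strand. The normalized signal equals the deposited count divided by 1 size factor per library, and the deposited FPKM gave the exon lengths.

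Genes with low counts were removed by filterByExpr. edgeR 4.0.16 (R 4.3.3) fitted the deposited counts with TMM factors and a quasi-likelihood test, with the 4 groups of a label in 1 fit and all 8 groups in 1 fit across labels. Genes were called at a Benjamini-Hochberg adjusted p under 0.05 over all tested genes. SEs were computed as the log2 difference over the root of F, intervals as 1.96 SE to each side. DESeq2 1.42.0 was the alternative tool, and it gave no adjusted p for Atp2a3 in most comparisons. Levels are CPM with TMM factors. The edgeR steps were tested on simulated data. Other alternatives were size factors, no filter, a replicate block, a length trend taken out, summed or left-out libraries and fits of the groups compared. Named genes were the 7 pumps, up to 3 called calcium handling genes with the smallest p per comparison, and the 3 most similar genes per pump. Some sequences and 1 similar gene are not reported here. The members and lists were chosen with earlier results of these data known. Same-numbered libraries of different groups within a label did not deviate together (median r of -0.11 and -0.05), so numbers were not used as pairs. Between the labels the median r was -0.01 over 80 same-numbered pairs, most of them of different conditions. Whether libraries of 1 condition and number under the 2 labels came from 1 mouse was not tested.

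The series' design text names other tissues than the labels do, and the labels were followed. Figures were drawn with matplotlib 3.10.9.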

Additional observations from a re-analysis of the deposited data

Results flagged for a closer look

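In 10 of 56 sets of a gene and a group, 1 library lay far from the others of its group. Several of these sets share a library or a gene, so their number is not set against a chance rate. In cerebellum control replicate 5, Atp2b1 was 270.9 CPM beside 31.1 to 81.2 CPM in the other 4 libraries, Atp2b2 was 477.4 CPM beside 318 to 357 CPM, Atp2b4 was 275.9 CPM beside 45.5 to 90.8 CPM, and Atp2c1 was 50.94 CPM beside 21.8 to 30.2 CPM. In cerebellum control NaKtide replicate 5, Atp2b3 was 73.25 CPM beside 16.9 to 29.7 CPM and Atp2a3 was 96.02 CPM beside 8.25 to 12.0 CPM.

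Atp2a3 stood apart in 4 more libraries. It was 15.66 CPM in cerebellum western NaKtide replicate 3 beside 6.95 to 9.40 CPM, 254.1 CPM in cerebellum western replicate 3 beside 7.75 to 10.8 CPM, 28.99 CPM in hippocampus western replicate 4 beside 8.03 to 9.60 CPM, and 31.64 CPM in cerebellum control replicate 1 beside 7.52 to 14.4 CPM.

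The NaKtide change on western diet differed between the tissue labels by -2.13 on the log2 scale for Atp2b1 and by -1.33 for Atp2c1, in a contrast that contains the libraries behind the choice of the genes.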

How the results depend on the processing

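The 4 pump genes called lower with NaKtide on western diet under the hippocampus label were called under every alternative tried. Those alternatives reuse the libraries behind the choice of the genes, so this is a description. For the diet under the hippocampus label, edgeR called 0, against 2 with DESeq2, 1 without the low-count filter, 1 with control replicates 5 and 6 summed, 2 without libraries with Xist, 1 with only the groups compared, and 0 to 2 when 1 library was left out. The share of all genes called changed as well, from 0% with edgeR to 5.72% with DESeq2. That share is not given here for every setting, so counts in this section are not results about the pumps alone. DESeq2 called 1 where edgeR called 0 in the hippocampus interaction, in both cerebellum comparisons against control and between labels in western mice, and 2 between labels in control mice, where 2 were also called with the length trend taken out. Leaving out 1 library gave 0 to 1 for the cerebellum diet, 0 to 4 for NaKtide on control diet there, and 0 to 3 between labels in control mice. The label difference of the NaKtide change held 2 calls, against 1 without the filter, 1 with the length trend taken out, 1 with control replicates 5 and 6 summed, 0 without libraries with Gabra6, and 1 to 4 when 1 library was left out. The Atp2a3 difference between cerebellum western NaKtide and western was -2.67, and it was 0.07 without libraries with Gabra6 and 0.07 without western replicate 3, with a range of -2.96 to 0.07 when 1 library was left out. Beyond fewer samples or genes, the cause of these changes was not tested. The main fits did not use the numbers as pairs. With the replicate block, 4 genes were called for NaKtide on western diet under the hippocampus label. In the label difference 2 were called with that block, at -2.33 for Atp2b1 and -1.41 for Atp2c1. Totals of 4669374 to 9521002 counts limit precision for Atp2b3 and Atp2a3, whose lowest counts were 32 and 34.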
